A study of Mus musculus with 577 samples.

Results

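The RNA of 10 genes of the Hippo pathway and of actin control was followed through every gene table of a mouse study that joined laser capture microdissection (LCM) of ovarian sections to single-cell RNA-seq. The genes were Yap1, Wwtr1, Lats1, Lats2, Tead1, Ctgf, Cyr61, Flna, Enah and Abl2, matched by symbol, and all 10 were found among the 22060 protein-coding genes of the tables. They were picked as a group with results of these data in view. Flna, Enah and Abl2 had been picked by the study from its single granulosa cells as genes with higher values away from the oocyte, and Yap1 from its oocytes as a gene that moved with oocyte size, so the values of these genes in those cells are description and carry no test.

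Yap1 and Wwtr1 (TAZ) encode coactivators that enter the nucleus and bind DNA through TEAD factors such as Tead1. Lats1 and Lats2 encode the kinases at the end of the Hippo cascade, which phosphorylate YAP and TAZ and keep them out of the nucleus. Ctgf (Ccn2) and Cyr61 (Ccn1) encode secreted matricellular proteins and are widely used targets of YAP/TAZ and TEAD. Flna encodes filamin A, a crosslinker of actin filaments, Enah encodes a protein of the Ena/VASP family that promotes filament elongation, and Abl2 encodes a tyrosine kinase that binds actin. Polymerized actin is known to favour nuclear YAP, and in the ovary disruption of the Hippo pathway is known to promote follicle growth.

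The ovarian groups came from 8-week-old female mice, and neither strain nor any modified allele is stated in the labels. Ovaries were snap-frozen, sectioned, fixed in alcohol and stained with cresyl violet, and 1 set of sections was fixed in formalin for 24 h instead. In sections, granulosa cells were labelled neighboring where they lay next to the oocyte and non-neighboring elsewhere in the follicle. They were taken as single cells, as pools of 10 cells (7 pools for each position) or as bulk granulosa of 7 sectioned follicles. Where such a section held the oocyte, it had been cut out first, and the stage of follicles without an oocyte in the section was not identified. Oocytes were labelled by follicle as primary or secondary-antral. In a further mouse in proestrus, 1 ovary was sectioned for LCM (35 neighboring and 35 non-neighboring granulosa cells) and the other was dissociated (14 and 21 cells), from cumulus–oocyte complexes held in medium with dibutyryl-cAMP. Among the dissociated cells, neighboring cells were those attached to the oocyte, and non-neighboring cells were other granulosa cells of the complexes. Mouse embryonic stem cells (mESCs) grown in 2iLIF (the GSK inhibitor CHIR99021, the MEK inhibitor PD0325901 and LIF) were either freshly dissociated (45 cells) or cut from a frozen cell block by LCM (36 cells). No animal is named for any single cell, so each group of single cells counts as 1 sample. Its SD describes cells, and p-values are not given for it.

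Values are read counts scaled by the library's total on protein-coding genes (RPM), and means are of log2(RPM + 1), a scale on which differences of low genes are understated. Library totals ran from 12748 reads in a dissociated granulosa cell to 17506401 reads in a section of an oocyte, and those of the pools from 3811945 to 8259281. Intervals are exact 95% intervals and cover counting error alone. Granulosa markers were read in every library of the SC3-seq granulosa cells, with a median sum over 10 genes of 6382 RPM in neighboring and 6642 RPM in non-neighboring cells. The sum over 5 pluripotency markers had a median of 1524 RPM in fresh and 1499 RPM in LCM mESCs. Oocyte RNA was present in granulosa libraries. The sum over 14 oocyte markers had a median of 2943 RPM in neighboring and 64.2 RPM in non-neighboring SC3-seq cells. A total of 3 cells that stood apart in the study were kept out of the SC3-seq groups, and 1 mESC labelled LCM is listed as fresh elsewhere in the study. In the study's set of libraries with Y-shaped adapters, each of 10 mESC libraries was closest to a 3′ library of the other label, so those libraries are named only by their label.

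The sequences below show where the 6-base motif GGAATG, the core of sites bound by TEAD factors, occurs near the start of member genes. The genes lie on different chromosomes or far apart, at chr9:7931999-8004596 (minus strand) for Yap1, chr3:57455649-57575910 (minus) for Wwtr1, chr10:7681214-7716460 (plus) for Lats1, chr14:57689662-57758388 (minus) for Lats2, chr7:112679318-112906807 (plus) for Tead1, chr10:24595442-24598683 (plus) for Ctgf, chr3:145646976-145649981 (minus) for Cyr61, chrX:74223461-74249820 (minus) for Flna, chr1:181896384-182019990 (minus) for Enah and chr1:156558786-156649568 (plus) for Abl2, all in GRCm38. Promoter windows, from 250 bases before to 50 bases after a start, were taken from RefSeq (GRCm38.p6). The motif was searched on both strands, so that it appears as GGAATG or as its reverse complement CATTCC, and it is shown in capitals with 35 bases on each side, 5′ to 3′ on the strand of the gene.
Yap1, chr9:8004697-8004772, minus strand: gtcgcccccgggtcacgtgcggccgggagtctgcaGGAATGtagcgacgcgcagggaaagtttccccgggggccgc
Wwtr1, chr3:57576006-57576081, minus strand: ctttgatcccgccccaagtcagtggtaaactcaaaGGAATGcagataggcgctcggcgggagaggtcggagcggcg
Lats2, chr14:57746079-57746154, minus strand: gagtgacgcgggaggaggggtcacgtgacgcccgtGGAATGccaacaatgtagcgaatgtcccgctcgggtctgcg
Cyr61, chr3:145650048-145650123, minus strand: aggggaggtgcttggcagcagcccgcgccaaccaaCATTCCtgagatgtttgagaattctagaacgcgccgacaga
Flna, chrX:74246640-74246715, minus strand: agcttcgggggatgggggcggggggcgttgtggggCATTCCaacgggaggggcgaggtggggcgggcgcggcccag
The motif began at -141 in Yap1, -136 in Wwtr1, -103 in Cyr61 and -146 in Flna, counted from the start, and at +4 in Lats2. The windows of Lats1, Enah and Abl2 and the second window of Lats2 held no match, and Tead1 and Ctgf were not searched. Over the genome, 4817 of 32851 windows (14.7%) and 4481 of 27025 genes (16.6%) held the motif. A match is a description of the letters and not evidence of binding.

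Pools of 10 granulosa cells were the replicated material for position in the follicle, and none of the 10 genes passed the test there. Flna was read in the neighboring pools 1 to 7 at 320, 202, 313, 403, 0.238, 189 and 165 RPM and in the non-neighboring pools at 726, 1145, 580, 190, 277, 319 and 216 RPM. Its 3 highest pools were non-neighboring, but the groups overlapped, and neighboring pool 5 was almost without reads. In pools and in bulk, fewer cells that express a gene and less RNA per cell cannot be told apart. The mean was 6.89 ± 2.94 in neighboring and 8.66 ± 0.97 in non-neighboring pools (SD, n = 7 each). The log2 fold change was 1.17 (SE 0.733) with an adjusted p of 0.998 by edgeR's quasi-likelihood test over 9704 genes, and the exact two-sided permutation test over 3432 splits gave an unadjusted p of 0.0775. Of all genes tested, 0.453% were called, all of them lower in the non-neighboring pools, and 0 of the 8 members that passed the filter on low counts. At an unadjusted p under 0.05, edgeR called 0 of the 8 members and 4.14% of all genes, and DESeq2 called 0 of the 8 at an adjusted p under 0.05. For 0.608% of genes the groups did not overlap, and for 0 of the 10 members.

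Genes of theca and stroma cells, which lie outside the follicle's basal lamina, were unequal between these pools. The sum over 6 such genes was 3625, 2189, 440, 1.21, 189, 908 and 3.44 RPM in non-neighboring pools 1 to 7, against 1346, 5.64, 0.412, 0.340, 0.238, 1.89 and 0 RPM in the neighboring pools. Non-neighboring pools 1, 2 and 3, with the highest Flna, held 3 of the 4 highest sums of their group. The 14 oocyte markers ran the other way, from 856 to 8865 RPM in neighboring and from 2.34 to 151 RPM in non-neighboring pools. The part of either in the level of Flna was not tested in the pools.

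The coactivators were not separated by position. Yap1 was 52.7, 51.4, 27.2, 8.85, 122, 179 and 86.9 RPM in neighboring pools and 32.6, 97.5, 18.1, 25.8, 22.9, 13.9 and 46.1 RPM in non-neighboring pools, with a log2 fold change of -0.90 (SE 0.766; edgeR adjusted p = 0.998). The pair of highest pools were neighboring, and the ranges overlapped. Wwtr1 was scattered more widely, at 65.1, 14.4, 0, 1.70, 0.238, 0.757 and 120 RPM against 0, 23.6, 89.8, 40.1, 36.9, 1.84 and 43.6 RPM (0.42, SE 1.43). Tead1, their DNA-binding partner, had 0 reads in neighboring pools 3 and 4 and in non-neighboring pool 4, and reached 82.8 RPM and 179 RPM in pool 2 of each position (1.10, SE 1.46).

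Of the kinases, Lats1 had the most uneven pools. It was 22.6, 50.5, 231, 0.170, 0.238, 0.189 and 6.94 RPM in neighboring pools, of which pools 4, 5 and 6 were nearly without reads, and 85.4, 165, 27.1, 42.5, 33.8, 81.8 and 6.72 RPM in non-neighboring pools. Its mean was 3.13 ± 3.05 against 5.50 ± 1.43 (SD, n = 7 each), a difference of 2.38 with an exact permutation p of 0.0892, whereas the edgeR fold change was 0.25 (SE 1.25; adjusted p = 0.998) and, without pool number 3, 2.70. Lats2 ranged from 0.757 to 56.3 RPM and from 8.88 to 44.4 RPM (0.22, SE 0.910).

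Of the actin regulators, Enah was the steadiest, at 108.1 to 436 RPM in neighboring and 118 to 474 RPM in non-neighboring pools (-0.10, SE 0.447). Abl2 was 12.2 to 111.1 RPM in neighboring pools. It was 93.8, 42.4, 1.57, 64.05, 72.1, 0.262 and 81.4 RPM in non-neighboring pools, of which pools 3 and 6 stood far below the others (0.15, SE 0.990). Neither Enah nor Abl2 passed the test (edgeR adjusted p = 0.998 for both).

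The targets of YAP/TAZ were sparse and fell below the filter. Ctgf was at most 16.5 RPM in neighboring and 5.77 RPM in non-neighboring pools. Cyr61 was read in 2 neighboring pools, at 3.16 and 7.44 RPM, and in 2 non-neighboring pools, at 32.6 and 0.605 RPM. In wider lists of other genes, none of 17 genes tested from the Hippo pathway list, 8 of the YAP/TAZ target list and 29 of the actin regulator list was called in either direction, with median log2 fold changes of 0.38, 0.64 and 0.16 against 0.01 over all genes. The median of the 8 members tested was 0.24. Of 14 oocyte markers tested, 9 fell in non-neighboring pools (median -6.08).

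Bulk granulosa of sectioned follicles had a smaller SD than the pools of either position for 6 of 10 members. No share of all genes is given for this count, and bulk libraries held more cells than the pools. Against the 14 pools, none of the 9 members tested was called, where 0.101% of 11917 genes were called, all of them higher in bulk. At an unadjusted p under 0.05, edgeR called 0 of the 9 and 6.23% of all genes, and DESeq2 called 0 of the 9. The groups did not overlap for 0.0755% of genes and for 0 of the 10 members. Wwtr1 was 61.4, 135, 47.8, 106.2, 36.4, 113.1 and 81.3 RPM in bulk, and was read in 7 of 7 bulk libraries and 12 of 14 pools. Its mean was 6.26 ± 0.69 in bulk (SD, n = 7) against 3.44 ± 2.62 in pools (SD, n = 14). The edgeR fold change was 1.52 (SE 0.957; adjusted p = 0.933), and the difference of 2.82 had an unadjusted exact permutation p of 0.00626. These tests weigh the pools with few reads differently, and only the first was adjusted over all genes. The permutation takes bulk libraries and pools as exchangeable, although they differed in cell number and in spread. No share of all genes is given for its p.

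Flna in bulk was 232, 1275, 311, 280, 179, 1030 and 716 RPM, with 3 follicles far above the other 4, and was not called against the pools (0.80, SE 0.583; edgeR adjusted p = 0.996). Enah was 580, 289, 320, 153, 424, 437 and 323 RPM (0.54, SE 0.342; adjusted p = 0.932). Lats1 was even, between 14.5 and 26.4 RPM, and its fold change of -1.65 (SE 1.02; adjusted p = 0.930) was taken against pools that ran from 0.170 to 231 RPM. Yap1 was 20.7 to 42.2 RPM in 6 follicles and 123 RPM in bulk library 2, which also held the highest Lats2 (120 RPM) and Ctgf (26.7 RPM). Cyr61 was read in 4 of 14 pools and in 7 of 7 bulk libraries, at 0.148 to 22.5 RPM. It fell below the filter of the edgeR test. Its difference of 1.07 had an unadjusted exact permutation p of 0.178, and without the filter the edgeR adjusted p was 0.825 (log2 fold change 1.32). The median over the members tested was 0.54, against -0.09 over all genes.

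How the spread between libraries differed with the amount of material depended on the gene. For Abl2 the SD was 3.08 and 3.28 over neighboring and non-neighboring SC3-seq cells, 1.34 and 2.61 over pools, and 0.38 over bulk libraries. For Lats1 it was 2.86 and 2.52 over cells, 3.05 and 1.43 over pools, and 0.28 over bulk libraries. For Ctgf it was 1.22 and 1.18 over cells, 1.71 and 1.14 over pools and 1.39 over bulk libraries. For Cyr61 it was 0 and 1.22, 1.29 and 1.89, and 1.72. Abl2 and Lats1 were thus closest together in bulk, and Ctgf and Cyr61 were not. The spread of all genes was not set beside these values.

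**Figure D1:**
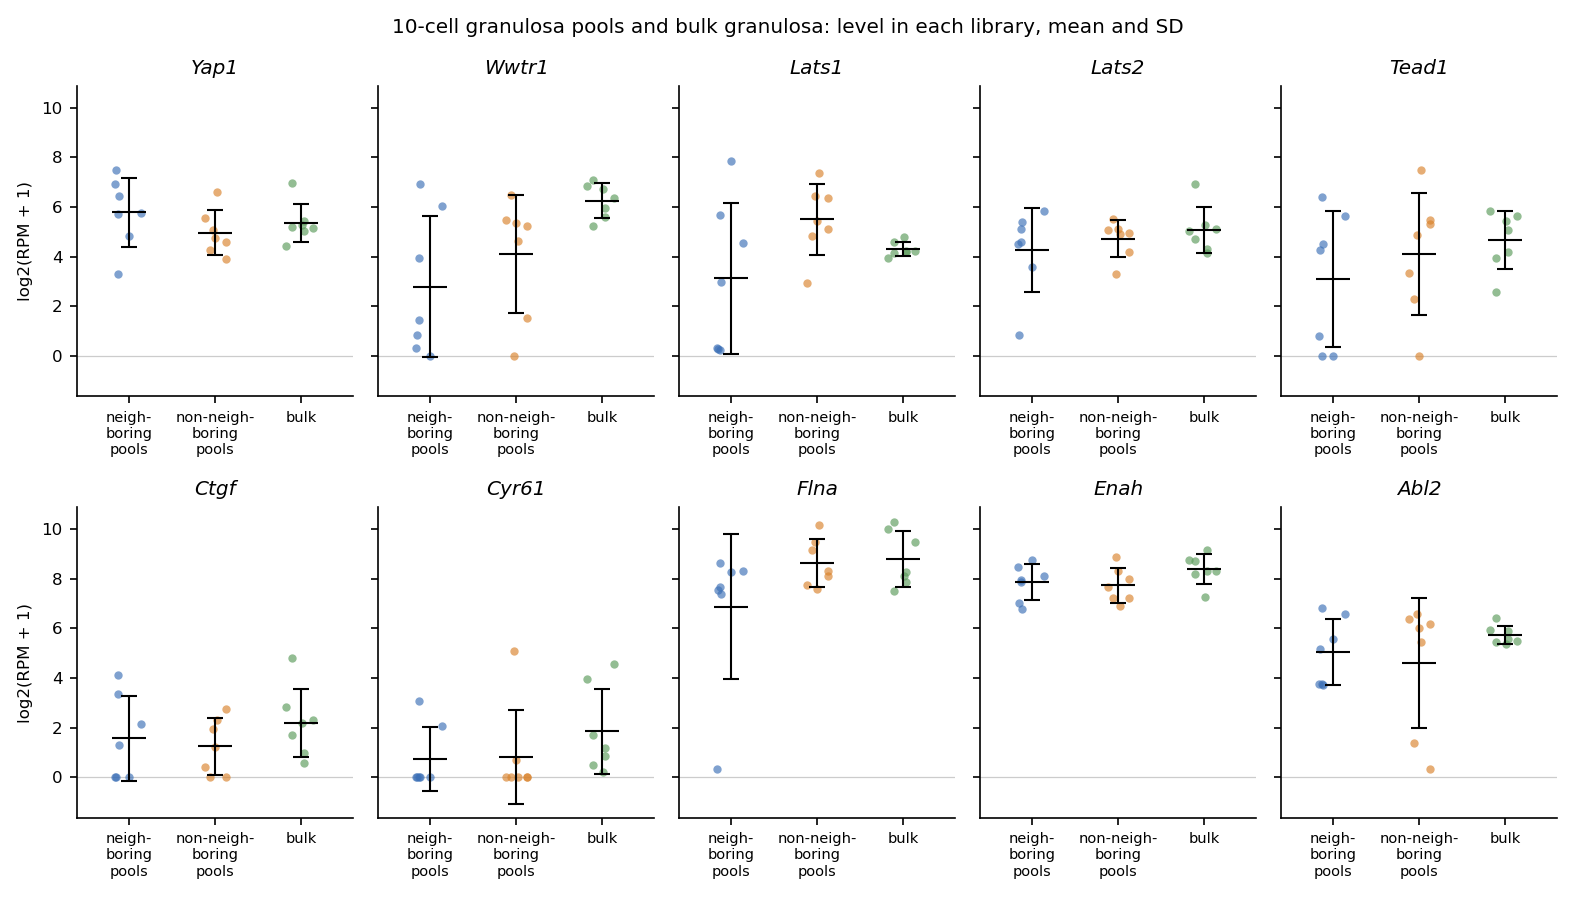
Each panel plots 1 gene as log2(RPM + 1) on the vertical axis, with 1 point per library for 7 neighboring pools, 7 non-neighboring pools and 7 bulk granulosa libraries, and bars for the mean and SD. The groups overlap in every panel, Flna has 1 neighboring pool near 0, and the bulk libraries of Lats1 (SD 0.28) and Abl2 (SD 0.38) lie closest together.

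In single granulosa cells the position was recorded in 8 protocols: DRaqL-SC3-seq, SMART-Seq v4 with and without DRaqL, LCM-seq Smart-seq2, DRaqL-Smart-seq2, DRaqL-Protease-Smart-seq2 on formalin-fixed sections, and the LCM and dissociated cells of the same mouse. DRaqL is the study's lysis of section cells in a denaturing detergent that is then quenched, and the formalin-fixed cells were also digested with a protease that was then inactivated by heat. Several protocols used sections of 1 ovary, so they are not independent animals. In the dissociated cells, position meant attachment to the oocyte within cumulus–oocyte complexes, a contrast of another kind than place in a section. Flna was the member whose direction was shared. Its mean was higher in non-neighboring cells in 8 of 8 protocols, by 0.80 to 3.05 (median 1.59). Of 8166 genes, 2.51% were higher in all 8, and 1.67% exceeded the median of all genes in all 8, as Flna did (by 0.36 to 2.91). The direction held in 8 of 8 with pseudocounts of 0.1 and 10, TMM scaling or thinning to 1 depth, and in 7 of 8 with summed counts. The SC3-seq cells were used to pick Flna. In the other 7 protocols, 3.29% of genes were higher in all, and 2.69% exceeded the median in all.

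By protocol, Flna was read in 23 of 31 neighboring and 21 of 26 non-neighboring SC3-seq cells, with means of 3.56 ± 2.88 and 5.61 ± 3.20 (SD over cells). In DRaqL-SMART-Seq v4 the gap was widest, from 4.11 ± 2.98 (17 of 20 cells with a read) to 7.16 ± 1.69 (19 of 19). In DRaqL-Smart-seq2 it went from 3.94 ± 2.85 (11 of 15) to 6.37 ± 1.78 (18 of 19), and in the LCM cells of the same mouse from 3.91 ± 2.98 (25 of 35) to 5.49 ± 2.98 (31 of 35). In every protocol the cells of both positions overlapped.

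SMART-Seq v4 without DRaqL gave 4.34 ± 3.18 against 5.95 ± 4.15, LCM-seq Smart-seq2 5.02 ± 2.42 against 5.82 ± 2.58, and formalin-fixed sections 5.15 ± 2.17 against 6.59 ± 1.48. In dissociated cells the means were 3.04 ± 3.83 (7 of 14 cells) and 4.32 ± 2.66 (16 of 21). There the median of all genes was itself 0.92 higher in non-neighboring cells, and the summed counts ran the other way, from 176 RPM in neighboring to 66.9 RPM in non-neighboring cells, with 59.7% of the neighboring reads in 1 cell. Labels name a library pool for all protocols but SC3-seq. In dissociated cells, position and library pool moved together in part. There, 10 of 21 non-neighboring cells were in pool 1, which held no neighboring cell. Of the neighboring cells, 5 of 14 were in pool 2, which held no non-neighboring cell. Of 28 pools that held both positions, mean Flna was higher in non-neighboring cells in 24 and lower in 3, of which 2 were among the 4 pools of LCM-seq Smart-seq2 and 1 among the 3 of dissociated cells. Some of these library pools held only 1 or 2 cells of a position. Many shared an ovary or a mouse, so they are not replicates, and no share of all genes is given for this count.

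Markers of other cells moved with position in the same protocols. The median oocyte marker sum was lower in non-neighboring cells in all 8, for example 423 against 5.00 RPM in DRaqL-SMART-Seq v4 and 350 against 124 RPM in the LCM cells of the same mouse, and nearly equal in dissociated cells (157 and 155 RPM). Cells with 100 RPM or more of theca and stroma genes were 0 of 31 neighboring and 3 of 26 non-neighboring in SC3-seq, 1 of 20 and 11 of 19 in DRaqL-SMART-Seq v4, and 0 of 15 and 7 of 19 in DRaqL-Smart-seq2. Without these cells, mean Flna was higher in non-neighboring cells in 8 of 8 protocols, by 0.58 to 3.05. Without them and without cells that held 10% or more of an oocyte's marker RNA, it was higher in 6 of 6 protocols where both could be left out, by 0.90 to 2.99. The cut of 100 RPM was chosen after the data were seen, and cells with less of this RNA stayed in. No share of all genes is given for these counts, and the part of theca, stroma or oocyte RNA in the level of Flna was not tested.

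The other actin regulators shared less. Enah in SC3-seq was 5.86 ± 3.16 in neighboring and 7.93 ± 2.46 in non-neighboring cells, and Abl2 2.65 ± 3.08 (18 of 31 cells) and 4.73 ± 3.28 (20 of 26), the contrast from which both had been picked. Outside it, each was higher in non-neighboring cells in 5 of 7 protocols. Enah exceeded the median difference of all genes in 5 of these 7 protocols and Abl2 in 4. No share of all genes is given for these counts. Enah was lower by 1.13 in DRaqL-SMART-Seq v4. With SC3-seq counted, each was higher in 6 of 8 protocols. Abl2 without the theca-positive cells, a cut chosen after the data were seen, was higher in 8 of 8 protocols, by 0.18 to 1.85, and Enah in 5 of 8. With cells high in oocyte marker RNA also left out, Abl2 was higher in 5 of 6 protocols (-0.16 to 1.36) and Enah in 4 of 6. By summed counts, Abl2 was higher in 5 of 8 and Enah in 6 of 8. These counts include SC3-seq, and no share of all genes is given for them.

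Among the Hippo genes, Wwtr1 was higher in non-neighboring cells in 7 of 8 protocols, a count that 10.4% of genes reached or passed, and lower by 1.04 in DRaqL-SMART-Seq v4. Yap1 and Lats1 were each higher in 4 of 8 protocols, Lats2 in 5 and Tead1 in 3. Lats1 shows how far protocols parted. It was lower by 1.49 in SC3-seq (3.23 to 1.74, with reads in 21 of 31 and 13 of 26 cells), by 1.25 in DRaqL-SMART-Seq v4 and by 1.27 in LCM-seq Smart-seq2, and higher by 2.36 in SMART-Seq v4 and by 1.12 in LCM cells of the same mouse. Tead1 was higher by 1.70 in DRaqL-SMART-Seq v4 and lower by 1.17 in DRaqL-Smart-seq2, and Yap1 was lower by 1.54 in SMART-Seq v4.

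Ctgf was a gene of few cells. In the LCM cells of the same mouse it was read in 3 of 35 neighboring cells (8.57%, Clopper-Pearson 95% interval 1.80 to 23.1) and in 17 of 35 non-neighboring cells (48.6%, 31.4 to 66.01). With libraries thinned to 100000 reads, which left out 10 shallower cells, these were 2 of 28 and 12 of 32 cells. In SMART-Seq v4 it was read in 1 of 17 and 7 of 17 cells, and after thinning in 0 of 17 and 6 of 17. In SC3-seq it was read in 5 of 31 and 3 of 26 cells, and its mean was higher in non-neighboring cells in 3 of 8 protocols. The immediate early genes, which answer quickly to handling and stress, had a median sum of 13.9 RPM in neighboring and 80.97 RPM in non-neighboring LCM cells of the same mouse, and their part in the level of Ctgf was not tested. Cyr61 was read in 0 of 31 neighboring SC3-seq cells and in 1 of 26 non-neighboring cells. In the LCM cells of the same mouse it was read in 2 of 35 and 6 of 35 cells, and in its dissociated cells in 3 of 14 and 9 of 21. The mean of Cyr61 was higher in non-neighboring cells in 5 of 8 protocols and lower in 3.

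The shares of members that differed by more than 1 on the log2 scale were read against all genes with a mean of at least 1 in a group. They were 5 of 8 in SC3-seq (19.4% of genes, a contrast the choice of members used), 6 of 10 in SMART-Seq v4 (31.4%), 5 of 8 in DRaqL-SMART-Seq v4 (28%), 1 of 8 in LCM-seq Smart-seq2 (27.7%), 2 of 8 in DRaqL-Smart-seq2 (22%), 3 of 9 in formalin-fixed sections (34.6%), 3 of 10 in LCM cells of the same mouse (20.3%) and 6 of 9 in its dissociated cells (51.6%). The actin regulator list in SC3-seq had 8 of 30 measured genes higher by more than 1 in non-neighboring cells and 0 lower, where 14.1% of all genes were higher and 5.33% lower. In LCM-seq Smart-seq2 it had 2 higher and 3 lower of 31 (all genes 7.45% and 20.3%). The Hippo pathway list had 1 higher and 0 lower of 18 in SC3-seq, and 11 higher and 2 lower of 20 in DRaqL-SMART-Seq v4 (all genes 17.4% and 10.6%).

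**Figure D2:**
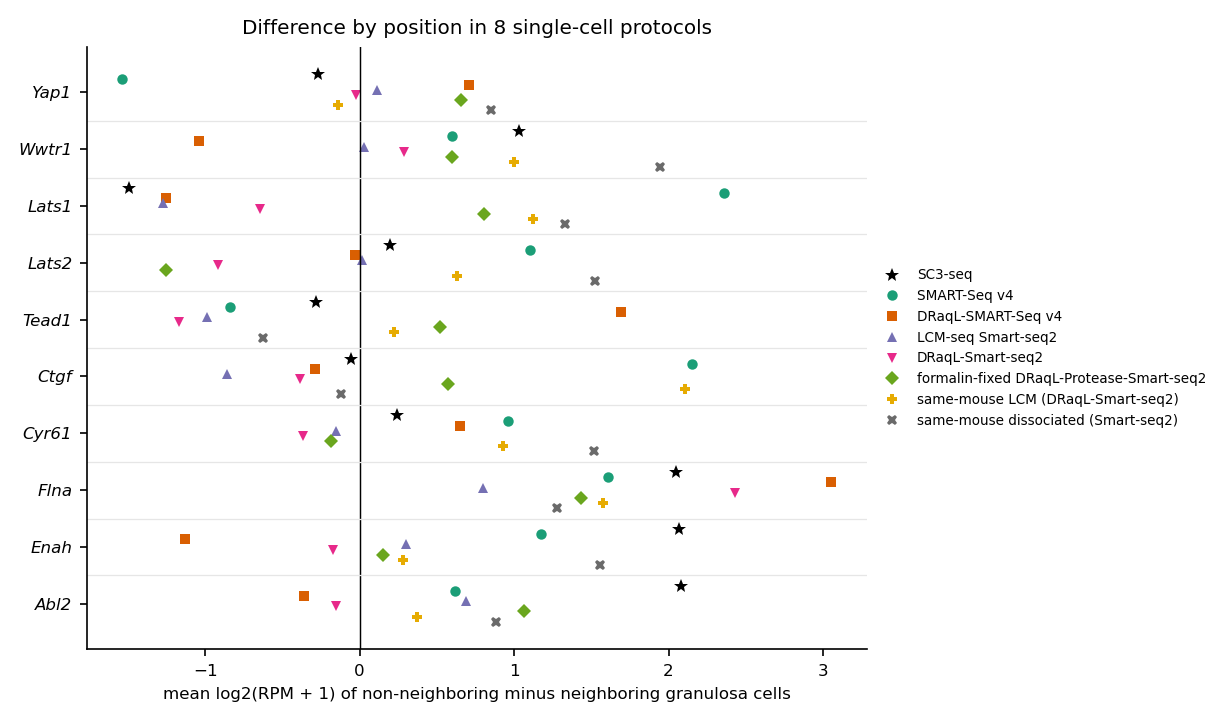
The horizontal axis gives the mean log2(RPM + 1) of non-neighboring minus neighboring granulosa cells, with 1 row per gene and 1 symbol per single-cell protocol. All 8 symbols of Flna lie to the right of 0, between 0.80 and 3.05, and the rows of Yap1, Lats1, Tead1 and Ctgf lie on both sides.

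The cells of 1 mouse allowed dissociated granulosa cells to be set beside LCM cells. Dissociation, dibutyryl-cAMP in the medium, the granulosa cells sampled and the lysis protocol (Smart-seq2 against DRaqL-Smart-seq2) changed together. The ovary and the library pool changed with them, and no library pool held both dissociated and LCM cells. These cannot be told apart. The dissociated cells came from cumulus–oocyte complexes of fully grown follicles, and the LCM cells from sections. Tead1 had the widest gap of the members. It was read in 70 of 70 LCM cells and in 22 of 35 dissociated cells, with means of 7.37 ± 1.79 and 3.48 ± 3.16 (SD over cells), lower by 3.89 in dissociated cells. Its median was 114.5 RPM in neighboring (range 13.8 to 4647) and 200.2 RPM in non-neighboring LCM cells (21.5 to 4217), and 15.96 RPM (0 to 1569) and 7.56 RPM (0 to 246) in dissociated cells. The ranges overlapped, although no LCM cell was without a read. After thinning to 100000 reads, it was read in 58 of 60 LCM and 12 of 20 dissociated cells.

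The high Tead1 level was that of this LCM set. Its means in all other single granulosa groups, given side by side and from separate tables, lay between 3.11 and 6.12. In the oocytes of the same mouse Tead1 was 5.19 ± 0.92 in LCM (n = 8) and 2.85 ± 1.47 in dissociated cells (n = 14), while Yap1 was 6.82 ± 0.80 and 7.76 ± 0.53.

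Of the 10 members, 7 differed by more than 1 between dissociated and LCM granulosa cells, where 50.2% of all genes did, and the median of all genes was 0.14. The actin regulators Enah (8.18 ± 2.13 to 6.14 ± 3.12) and Abl2 (4.59 to 3.02) were lower in dissociated cells, by 2.04 and 1.58. Lats2 was lower by 1.50 and Wwtr1 by 1.39. Flna (4.70 to 3.81), Lats1 (4.12 to 3.27) and Yap1 (4.24 to 3.79) were lower by less than 1. Thinning left out 25 cells, kept 60 LCM and 20 dissociated cells, and moved the median of all genes to 0.38. After it, the difference was 0.02 for Wwtr1 and -4.03 for Tead1.

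The pair of YAP/TAZ targets parted. Ctgf was read in 20 of 70 LCM and 2 of 35 dissociated cells (1.60 to 0.35), and Cyr61 in 8 of 70 and 12 of 35 (0.71 to 2.06). After thinning they were read in 14 of 60 against 0 of 20 cells and in 6 of 60 against 7 of 20 cells. Cyr61 is itself an immediate early gene. Of the immediate early list, 8 of 10 measured genes (Fos, Fosb, Jun, Junb, Egr1, Ier2, Btg2 and Dusp1) were higher by more than 1 in dissociated cells, with a median difference of 2.38. Over all genes, 27.6% were higher and 22.6% lower by more than 1. Of the YAP/TAZ target list, 0 of 11 were higher and 6 lower. The Hippo pathway list had 1 higher and 8 lower of 19, and the actin regulator list 9 higher and 7 lower of 27. Other markers moved too. Both blood genes measured, Hba-a1 and Hbb-bs, were higher by more than 1 in dissociated cells (median difference 1.62), and of 10 granulosa markers 4 were higher and 2 lower. The part of these in the members' levels was not tested.

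**Figure D3:**
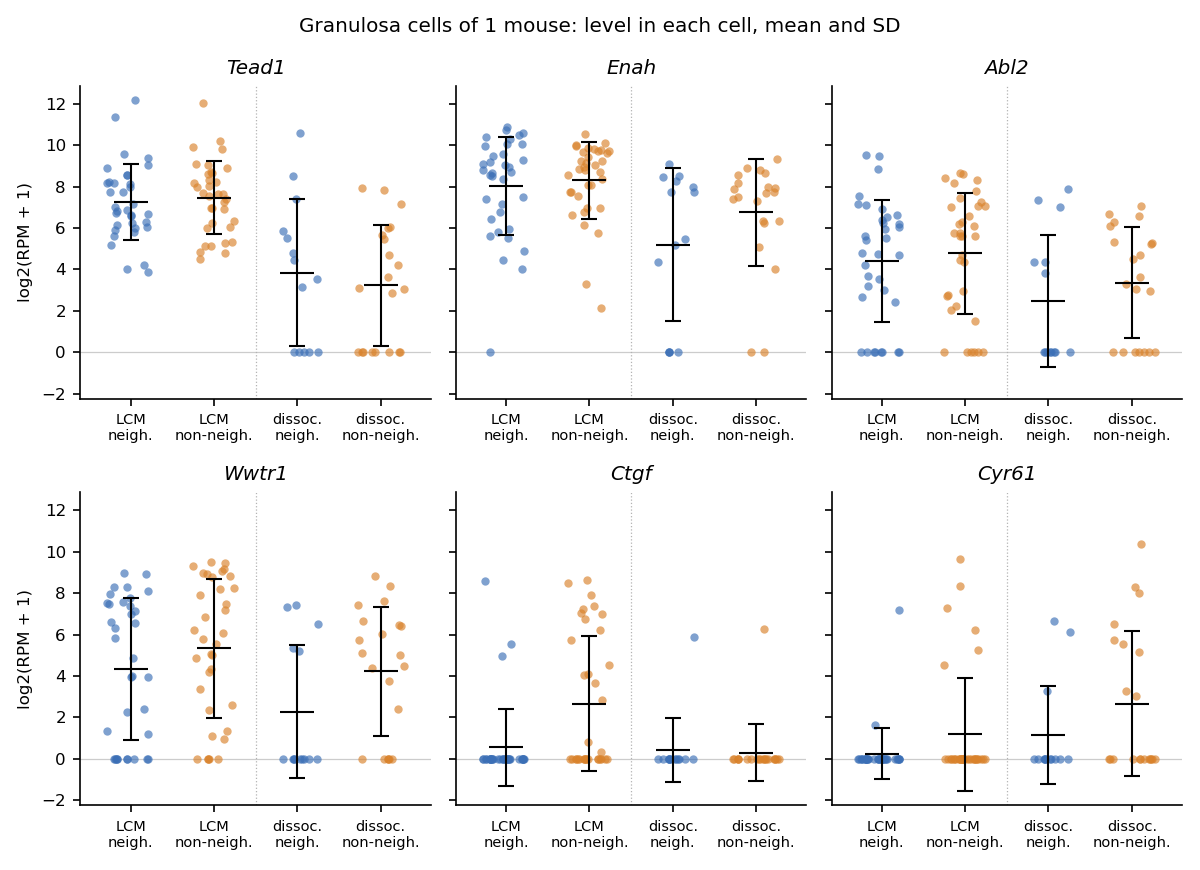
Each panel plots 1 gene as log2(RPM + 1) per granulosa cell of the same mouse, by position, for LCM cells (35 and 35) and dissociated cells (14 and 21), with bars for the mean and SD. Every LCM cell has Tead1 above 0, whereas 13 of 35 dissociated cells lie at 0, and Ctgf points above 0 are mostly non-neighboring LCM cells.

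In mESCs the comparison of LCM with fresh cells sets cells from a section beside cells of the same culture that were never sectioned. The groups are as labelled. The libraries with Y-shaped adapters were closest to 3′ libraries of the other label, and in which set, if either, labels were exchanged was not settled. Of 8 members measured, 1 differed by more than 1, where 9.97% of all genes did, and the median of all genes was -0.24. That gene was Yap1, at 4.60 ± 1.52 in fresh and 3.40 ± 1.62 in LCM cells (SD over cells). Its median was 31.96 RPM (0 to 105.2) in fresh and 11.04 RPM (0.629 to 56.9) in LCM cells, with wide overlap, and reads were present in 44 of 45 and 36 of 36 cells. Without the LCM cell that is listed as fresh elsewhere the difference was -1.21.

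Tead1 was 5.59 ± 1.30 and 4.74 ± 1.54, lower by 0.85 in LCM cells. Flna (7.52 ± 1.01 and 7.98 ± 0.89) and Enah (8.08 and 8.25) were slightly higher there. Wwtr1 (4.58 and 4.16), Abl2 (4.50 and 4.39), Lats1 (2.48 and 2.38) and Lats2 (1.93 and 1.82) lay closer together than the spread between cells. Cyr61 was read in 21 of 45 fresh cells (46.7%, interval 31.7 to 62.1) and 4 of 36 LCM cells (11.1%, 3.11 to 26.1), at no more than 33.5 RPM. At 204699 reads per library it was read in 6 of 45 and 0 of 36 cells, a level near that of 1 read, from which no change is read. Ctgf was read in 9 of 45 and 9 of 36 cells. Of 22 measured genes of the Hippo pathway list, 4 were lower by more than 1 in LCM cells (Wwc2, Frmd6, Amotl2 and Taok2) and 0 higher, where 9.17% of all genes were lower and 0.793% higher.

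**Figure D4:**
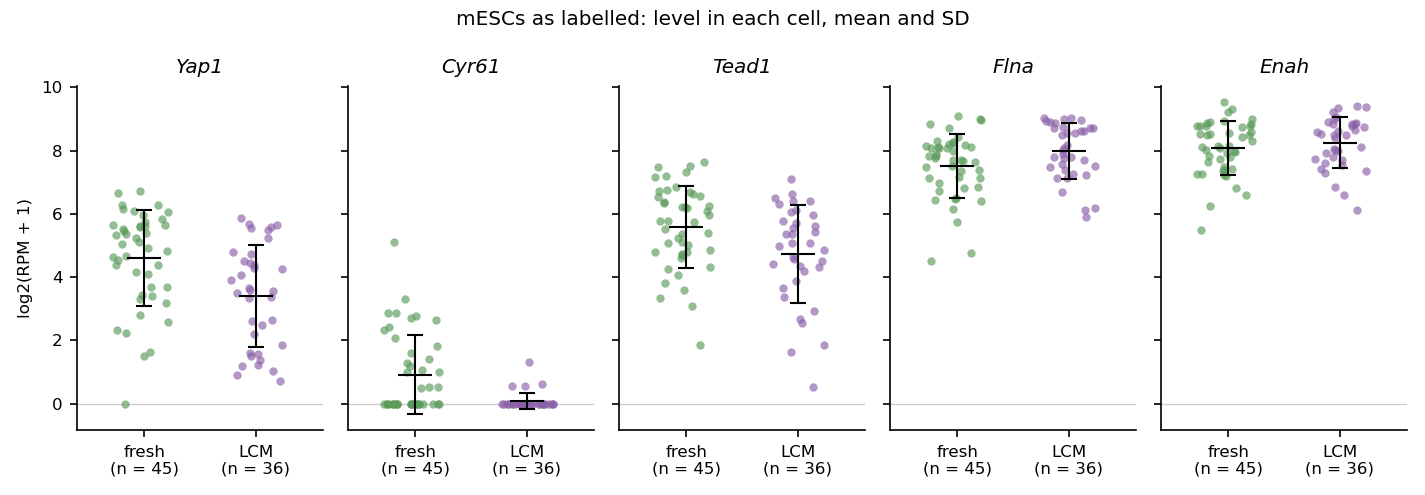
Each panel plots 1 gene as log2(RPM + 1) per cell for 45 fresh and 36 LCM mESCs, as labelled, with bars for the mean and SD. Yap1 is lower in LCM cells by 1.20 with overlapping points, Cyr61 lies near 0 in LCM cells, and Flna and Enah lie at like heights in both.

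In oocytes, Yap1 was read at both follicle stages. In SC3-seq it was 14.8 to 90.2 RPM (median 39.01) in 14 oocytes of primary follicles and 97.3 to 451 RPM (median 271) in 30 of secondary-antral follicles. The ranges did not overlap, and the means were 5.30 ± 0.85 and 8.06 ± 0.54, apart by 2.76. The share of all genes without overlap between the stages was not counted, here or in the protocols below. Yap1 had been picked from these oocytes for its relation to size, and 2 of 8 measured members, Yap1 and Flna, differed by more than 1 between the stages, where 46.9% of all genes did (32% higher and 14.9% lower in secondary-antral oocytes). In SMART-Seq v4 the means were 4.24 ± 2.06 (n = 7) and 7.46 ± 0.56 (n = 11), again without overlap. In DRaqL-SMART-Seq v4 they were 3.12 ± 1.98 (n = 6) and 7.05 ± 0.78 (n = 9), and in formalin-fixed sections 6.81 ± 1.32 (n = 5) and 7.73 ± 1.69 (n = 7), and in both the ranges overlapped. The library pool moved with stage in part of these sets. In SMART-Seq v4, all 7 primary oocytes were in library pool 2 and 10 of 11 secondary-antral oocytes in pool 1, and the remaining oocyte, in pool 2, had a Yap1 of 6.13. In DRaqL-SMART-Seq v4, the primary oocytes were all in pool 8 and the others all in pool 7, so that stage and pool cannot be told apart. In formalin-fixed sections all 12 oocytes were in pool 6, and there Yap1 was higher by 0.92 in secondary-antral oocytes.

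Flna went the other way in the same oocytes. It was 5.79 ± 3.11 in primary and 4.13 ± 1.67 in secondary-antral SC3-seq oocytes (medians 80.7 and 20.5 RPM), 6.62 ± 0.65 and 4.13 ± 1.72 in SMART-Seq v4, 5.14 ± 1.56 and 2.31 ± 1.54 in DRaqL-SMART-Seq v4, and 5.72 ± 1.93 and 3.80 ± 1.28 in formalin-fixed sections. The primary SC3-seq oocytes were split between 3 near 1 RPM and others up to 646 RPM. Granulosa marker RNA moved with Flna, with a median sum of 587 RPM in primary and 155 RPM in secondary-antral SC3-seq oocytes, and its part was not tested. The markers did not move together, since 3 of 8 measured were higher and 3 lower by more than 1 in secondary-antral oocytes, with a median difference of -0.12. The other members with SC3-seq means in both stages differed by less than 1, among them Abl2 (6.33 and 7.13), Enah (6.31 and 6.64), Lats2 (3.79 and 2.87) and Tead1 (4.48 and 3.66).

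**Figure D5:**
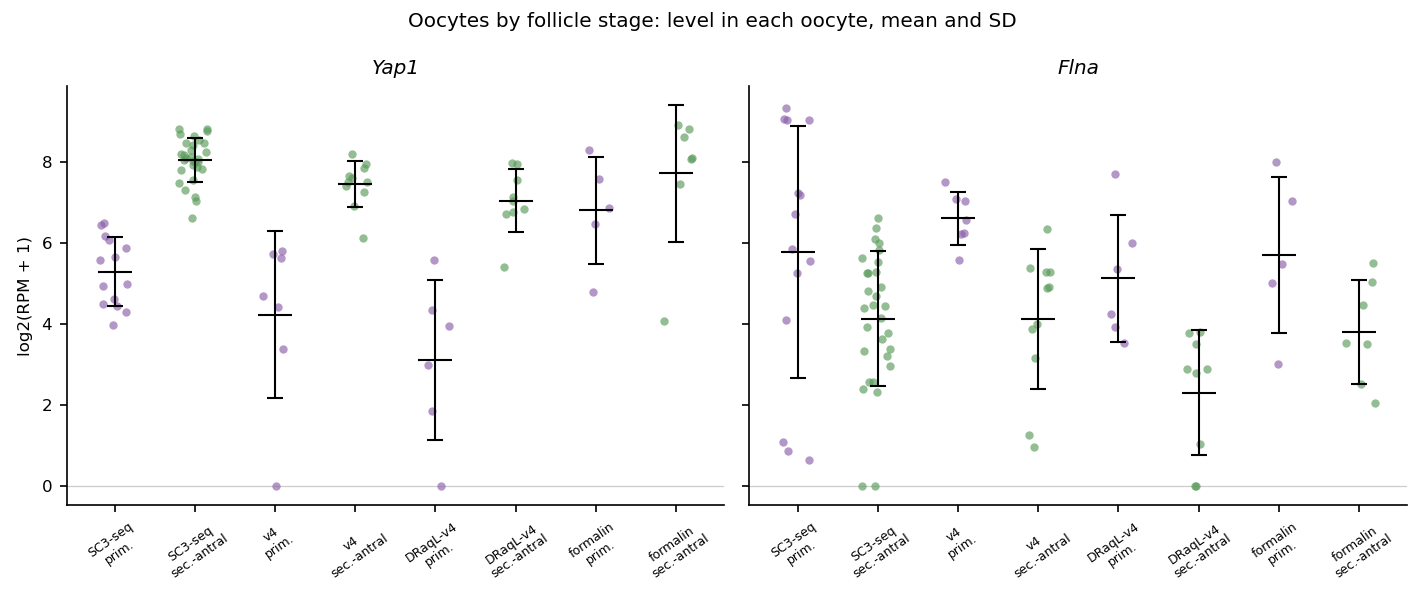
The panels plot Yap1 and Flna as log2(RPM + 1) per oocyte, for primary (prim.) and secondary-antral (sec.-antral) follicles in 4 protocols, with bars for the mean and SD. Mean Yap1 is higher and mean Flna lower in secondary-antral oocytes in each protocol, and the Yap1 points of the SC3-seq stages do not overlap. No share of all genes is given for this, and Yap1 had been picked from the SC3-seq oocytes.

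Over the SC3-seq libraries, from separate tables, mean Yap1 was ordered from secondary-antral oocytes (8.06) through primary oocytes (5.30), fresh mESCs (4.60), neighboring granulosa cells (4.39) and non-neighboring granulosa cells (4.12) to LCM mESCs (3.40). Only the first step exceeded the spread between cells. Mean Flna was ordered from LCM mESCs (7.98) and fresh mESCs (7.52) through primary oocytes (5.79), non-neighboring granulosa cells (5.61) and secondary-antral oocytes (4.13) to neighboring granulosa cells (3.56), and no neighbours in that order differed by more than the larger SD of the pair. Over 29 groups of libraries and 14354 genes, the genes whose group means followed Yap1 most closely were Usp49 (Pearson r 0.908), D1Ertd622e (0.899) and Cnot6l (0.897), and Abl2 reached 0.823. Those closest to Flna were Herc4 (0.823), Atxn10 (0.809) and Kdm5b (0.791). The groups share protocols, ovaries and depth, and the values are descriptions.

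Serial sections gave 2 libraries, each from 1 section, for each of 8 oocytes, and their differences hold sectioning, amplification and counting together. The median absolute difference of Yap1 was 0.395 between sections of 1 oocyte and 0.356 between oocytes, at 92.8 to 199 RPM in all 16 sections. Flna differed by 1.02 within and 1.58 between oocytes (0.192 to 56.3 RPM), and Lats1 by 0.642 and 1.32. Over 12762 genes the medians were 0.526 and 0.670. Cyr61 had no read in any of the 16 sections and Ctgf had reads in 5.

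Libraries with Y-shaped adapters gave counts per exon and per junction. These are raw reads that were not scaled by library depth, so levels are not compared between the groups. The last exon of Yap1 (chr9:7931999-7934732) held 8 to 198 reads (median 58) in the 5 libraries labelled fresh mESC, 78 to 310 (median 150) in the 5 labelled LCM, and 684 to 1373 in 5 oocytes. A terminal exon of Flna (chrX:74223463-74223977) held 245 to 2260, 42 to 1472 and 0 to 197 reads, and the last exon of Enah (chr1:181896384-181905897) 712 to 2157, 478 to 2952 and 128 to 286 reads. Junction reads of Enah were 3, 0, 0, 5 and 0 in the libraries labelled fresh and 36, 19, 41, 67 and 37 in those labelled LCM. These did not overlap, a pattern in this direction that 1.31% of 6121 genes shared (0.0327% in the opposite direction), and since each of these libraries was closest to a 3′ library of the other label, the direction between fresh and LCM cells is not read from it. Junctions of Flna overlapped (49 to 399 and 14 to 392 reads). For Yap1, Lats1, Tead1, Ctgf, Cyr61 and Abl2 no junction was listed in the mESC table.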

How the data were processed

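Single cells, pools and bulk granulosa libraries of mouse ovary and mESCs (577 samples, 562 of them in the gene tables) were read from whole-number counts that the authors deposited without normalization. The authors trimmed reads with fastp 0.20.0 and cutadapt 1.16, aligned them to GRCm38 with HISAT2 2.1.0 and counted reads within 10 kb of annotated 3′ ends with HTSeq 0.10.0. Exon and junction counts were made with featureCounts 2.0.1. A count near the 3′ end shows neither isoform nor length, and amplified cDNA without molecular identifiers makes reads more alike than independent molecules.

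Counts were divided by the total over 22060 protein-coding genes (RPM), and log2(RPM + 1) was averaged. The members and the lists were chosen with earlier results of these data known. Pools and bulk were tested with edgeR 4.0.16 (TMM, filterByExpr, quasi-likelihood F-test, Benjamini-Hochberg adjustment over all genes, threshold 0.05) in R 4.3.3, with DESeq2 1.42.0 as an alternative, and the test was tried on simulated data. P-values cover the spread between pools, for which no animal is named. Exact permutation tests were two-sided. Single cells were described only, since the labels name no animal, and counts past 1 on the log2 scale were taken among genes with a mean of at least 1 in a group. Alternatives were pseudocounts of 0.1 and 10, summed counts, thinning to 1 depth (at least 100000 reads), TMM or RLE scaling, no filter, the pool number as a block, each library left out, mixed cells left out and, chosen after the data were seen, cells with 100 RPM or more of theca and stroma genes left out. All members are named, and genes of the lists where they passed the threshold or fold. Other genes are the 3 nearest in pattern. Pools of both positions carry the same numbers. Whether a number marks a pair is not stated, and the correlations of same-numbered pools do not settle it, so the main test took the pools as unpaired. Python 3.11.15 with pandas 2.3.3, numpy 2.4.6, scipy 1.17.1 and matplotlib 3.10.9 was used for the rest.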

Additional observations from a re-analysis of the deposited data

Results flagged for a closer look

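In groups of 4 to 10 libraries, the gap from the highest or lowest value of each member to the next, as a share of the group's range, was set against Dixon's limit at 95%, which chance passes in about 1 of 20 groups. Of 90 combinations of 9 groups and 10 genes, 13 passed it, and values are given as log2(RPM + 1). Among the pools, Flna was 0.31 in neighboring pool 5, and Cyr61 was 5.07 in non-neighboring pool 1. In bulk granulosa, Yap1 (6.96) and Lats2 (6.92) were both highest in library 2. Among oocytes of primary follicles in SMART-Seq v4, Yap1 was 0 and Ctgf 2.20 in oocyte 7. In secondary-antral oocytes by DRaqL-SMART-Seq v4 the lowest values of Yap1 (5.42) and Abl2 (4.55) stood apart. In formalin-fixed secondary-antral oocytes, the lowest Yap1 (4.08), Lats1 (0), Enah (5.64) and Abl2 (5.60) and the highest Cyr61 (2.61) stood apart.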

How the results depend on the processing

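No member passed the edgeR or DESeq2 threshold in pools or bulk under any alternative. Ctgf and Cyr61 fell below the filter in the pools, where Cyr61 had reads in 4 of 14, and without the filter Cyr61 was not called (edgeR adjusted p = 0.749). In the pools, 0.453% of genes were called, and 1.22% by DESeq2, 0.294% without a filter on low counts, 0.940% with bulk in the same fit, and 0.0512 to 0.353% with 1 pool number left out (lowest without number 5). With the pool number as a replicate block 0.0309% were called, Enah turned to 0.0010 and the fold changes of Lats1 and Wwtr1 rose to 3.37 and 2.32, although same-numbered pools correlated at only -0.001 to 0.180 in their deviations and 3 of 7 neighboring pools correlated best with their own number. Fold changes in the pools turned sign with 1 pool number left out, over ranges of -0.383 to 0.331 for Enah, -0.285 to 1.57 for Wwtr1, -0.0222 to 0.639 for Lats2, -0.281 to 2.70 for Lats1 and -0.160 to 0.480 for Abl2, and Abl2 did so as a difference of mean log2(RPM + 1) (-0.44). In bulk, 0.101% became 2.31% without a filter, 1.65% by DESeq2 (of fewer genes with an adjusted p), 0.201% against neighboring pools, 0 against non-neighboring pools, and 0 to 0.469% with 1 bulk library left out (0 without library 3, 5, 6 or 7). Tead1 in bulk turned to -0.0146 by RLE and -0.0146 by DESeq2, to -0.48 against non-neighboring pools, and ran from -0.172 to 0.257 with 1 bulk library left out, and Yap1 to 0.33 against non-neighboring pools.

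The number of members past 1 on the log2 scale fell with a pseudocount of 10, which shrinks differences of low genes, to 3 in SC3-seq, 3 in SMART-Seq v4, 2 in DRaqL-SMART-Seq v4, 0 in LCM-seq Smart-seq2, 1 in DRaqL-Smart-seq2, 1 in formalin-fixed sections, 0 in dissociated cells by position, 2 for dissociated against LCM cells and 0 in mESCs. In LCM-seq Smart-seq2 it was 2 with a pseudocount of 0.1, with summed counts, with TMM and without theca-positive cells, and 3 after thinning. It was 3 in DRaqL-SMART-Seq v4 without theca-positive cells, with or without mixed cells, 4 in DRaqL-Smart-seq2 with summed counts, 1 in LCM cells of the same mouse after thinning, 2 in mESCs with summed counts or after thinning, and 5 in SC3-seq oocytes with summed counts, which moved the median of all genes by -0.58. For dissociated against LCM cells, TMM moved that median by -0.32, summed counts by -0.41 and thinning by 0.24. Directions turned for Lats2 in SMART-Seq v4 without theca-positive cells (-0.18), Lats1 in LCM cells of the same mouse after thinning (-0.0788), Flna in dissociated cells by summed counts (-1.38) and Wwtr1 in dissociated against LCM cells after thinning (0.0163). Except where stated, the cause was not tested. Mixed cells could not be left out for LCM-seq Smart-seq2 and DRaqL-Smart-seq2, which held no oocytes to set the limit.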
